A study of Mus musculus with 12 samples.

Results

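The choroid plexus genes described here are 9 genes for secreted proteins, receptors and regulators: Ttr, Sostdc1, F5, Wfdc2, Kl, Folr1, Prlr, Otx2 and Calml4. They were taken from a given list, and all 9 were found among the 15928 genes of the deposited count table. That table carries no gene names. A gene was named by matching its mean normalized count to the mean count in the DESeq2 results of the study, which named 1349 genes, and all other genes were tested without a name. RNA-seq was done on brain tissue holding both hippocampus and cortex from 5 wild type (Wt) mice and 7 Tg2576 (Tg) mice, which carry a human amyloid precursor protein transgene with the Swedish mutation, driven by the hamster prion promoter. The labels put the mice at 11 months of age, the methods of the study give a wider range, and no treatment was given to either group. The Wt group had 3 mice labelled female and 2 labelled male, and the Tg group had 4 and 3. Libraries were made and sequenced in 2 batches, the first with 3 Wt and 5 Tg mice. The second had only Wt females (79 and 80) and Tg males (68 and 69), and there sex and genotype cannot be told apart. Each library had 15768135 to 20996174 counts on genes, with a median of 18334306.

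The choroid plexus is a folded sheet of epithelial cells on a vascular core that hangs into the brain ventricles and secretes the cerebrospinal fluid. Its epithelium makes carrier proteins for that fluid, moves vitamins and hormones from blood to fluid through receptors on its surface, and keeps its identity through homeobox factors. Transthyretin, the product of Ttr, carries thyroid hormone and, together with retinol binding protein, retinol, and in the brain it is made chiefly by this epithelium. The plexus lies in the ventricle beside the hippocampus, and the labels do not say how much of it each dissected piece held. In bulk tissue, more cells of a type and more RNA per cell cannot be told apart.

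App, the gene for the amyloid precursor protein, served to test the genotype labels. It was at 1214 to 1496 CPM (read counts scaled to library size with TMM normalization) in Wt mice and at 2991 to 5727 CPM in Tg mice, so that no Tg mouse reached down into the Wt range. Xist, the RNA of the inactive X chromosome, did not match the sex label of 1 library. The Wt mouse labelled male 41 had 198.9 CPM, within the range of the mice labelled female (149.5 to 233.4), and the other mice labelled male had at most 0.0563. The edgeR tests of genotype and of sex were therefore repeated with this mouse as female and without it, and that of batch 1 alone with it as female, while the batch difference, DESeq2 and the permutation tests kept it as labelled. Markers of hippocampal and cortical neurons were also read, which cannot show on their own that a piece held both regions. Of the 14 listed, 5 were named, none of these was at 0 in any mouse, and their summed level was 3925 to 6298 CPM in Wt and 3367 to 4694 in Tg mice, led by Camk2a.

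Ttr (chromosome 18 of GRCm38, 20665280 to 20674321, plus strand) was the most abundant of the 9 genes per length of exon. In the Wt mice its level was 370.8 CPM in mouse 12, 167.7 in 79, 45.8 in 80, 33.0 in 95 and 16.9 in 41. In the Tg mice it was 1581 CPM in mouse 91, 1492 in 68, 1278 in 69, 1238 in 92, 897.8 in 32, 11.7 in 93 and 7.21 in 67. Thus 5 Tg mice were above all Wt mice and the other 2 Tg mice were below all Wt mice, so the groups overlapped at the bottom and not at the top. The mean was 126.8 ± 148.9 CPM (SD, n = 5) in Wt and 929.4 ± 664.7 (SD, n = 7) in Tg mice. Among all 15928 genes of a library, Ttr ranked 42nd in mouse 91 and 10851st in mouse 67. In mouse 91 it took 0.156% of all counts and in mouse 67 it took 0.000705%. The log2 CPM of Ttr had the 3rd largest SD of all genes, 3.01 against a median of 0.26. The other 8 genes also lay in the most variable percent of the table, from Folr1 (rank 10) to Sostdc1 (rank 142).

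**Figure D1:**
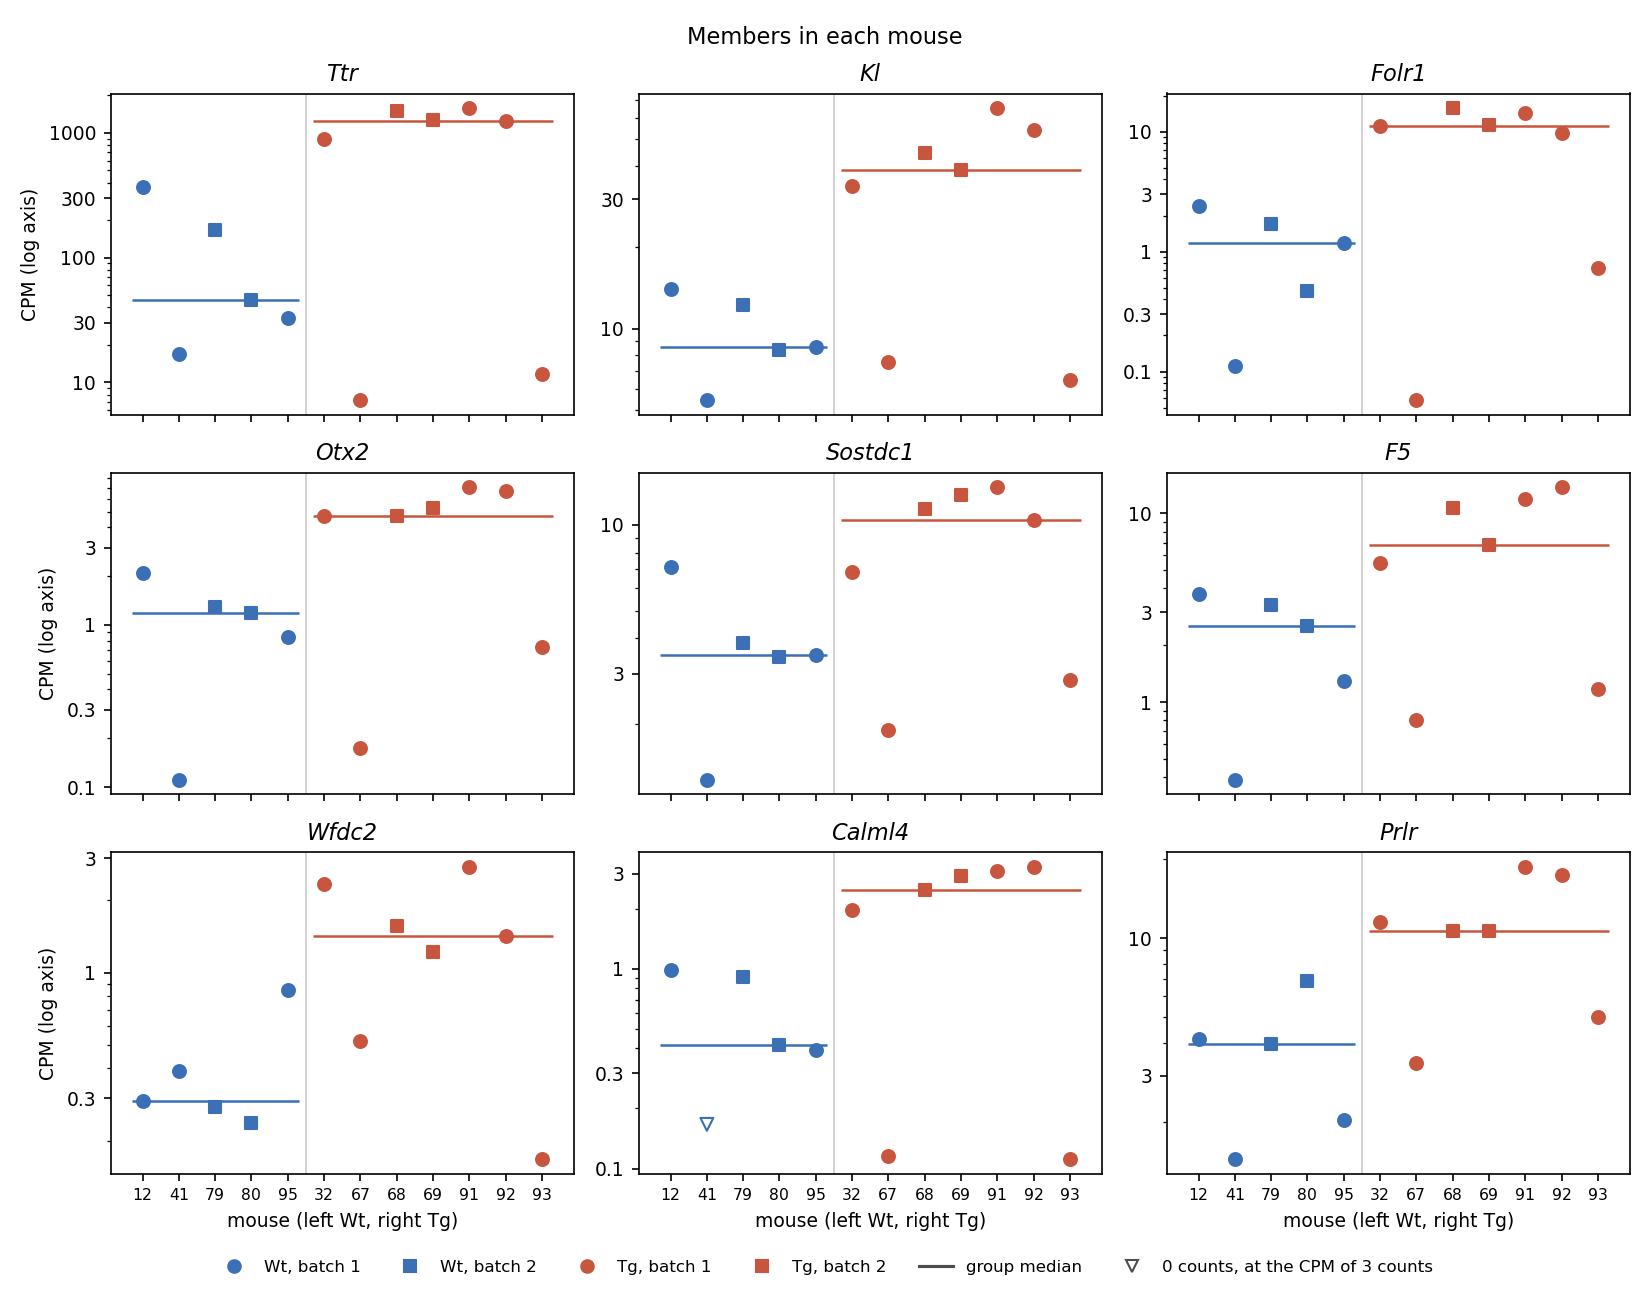
CPM of each of the 9 genes in each mouse on a log axis, with Wt mice in blue and Tg mice in red, circles for batch 1, squares for batch 2, lines at group medians, and an open triangle at the CPM of 3 counts where the count was 0. Tg mice 32, 68, 69, 91 and 92 lie at the top of nearly every panel, while Tg mice 67 and 93 lie among or below the Wt mice; for Ttr they have 7.21 and 11.7 CPM.

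The other secreted products followed the same mice. Sostdc1, a secreted antagonist of BMP and Wnt signalling (chromosome 12, 36314139 to 36318452, plus strand), was at 7.12 CPM in Wt mouse 12, 3.85 in 79, 3.49 in 95, 3.43 in 80 and 1.28 in 41. The Tg mice ran from 1.90 CPM through a median of 10.4 to 13.5. It was the single gene of the 9 in which a Wt mouse reached into the upper Tg mice: Wt 12 was above Tg 32, at 6.81 CPM, and 4 Tg mice were above all Wt mice. F5, coagulation factor V (chromosome 1, 164151838 to 164220277, plus strand), was at 3.73 CPM in Wt mouse 12, 3.25 in 79, 2.54 in 80, 1.29 in 95 and 0.389 in 41, the last from 7 counts, and the Tg mice ran from 0.807, from 14 counts in mouse 67, through a median of 6.76 to 13.7. Here 5 Tg mice were above all Wt mice, and the other 2 lay inside the Wt range. F5 overlaps a noncoding gene on the opposite strand and a pseudogene on its own, and whether strand was used in counting is not given in the sources used here.

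Wfdc2, which encodes a small secreted protein with whey acidic protein domains (chromosome 2, 164562413 to 164568510, plus strand), differed from these in its Wt mice. It was at 0.844 CPM (15 counts) in Wt mouse 95, 0.389 in 41, 0.292 in 12, 0.275 in 79 and 0.236 in 80, so that mouse 12, the highest Wt mouse for Ttr, Sostdc1 and F5, was not high for Wfdc2. The Tg mice ran from 0.167 CPM (3 counts) through a median of 1.43 to 2.76 CPM (51 counts). At 3 to 51 counts per mouse, counting error alone is large for this gene.

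Of the receptors, Kl encodes Klotho, a membrane protein that serves as co-receptor for FGF23 and is also shed into the cerebrospinal fluid (chromosome 5, 150952607 to 150993817, plus strand). Its level was 14.1 CPM in Wt mouse 12, 12.2 in 79, 8.55 in 95, 8.33 in 80 and 5.44 in 41. The Tg mice ran from 6.48 CPM through a median of 38.7 to 65.3, with 5 of them above all Wt mice and the other 2 inside the Wt range. Folr1, the folate receptor that takes folate across this epithelium (chromosome 7, 101858331 to 101870788, minus strand, overlapping Anapc15 on the other strand), was at 2.39 CPM in Wt mouse 12, 1.70 in 79, 1.18 in 95, 0.473 in 80 and 0.111 in 41, the last from 2 counts. In Tg mice it ran from 0.0577 CPM, from 1 count in mouse 67, through a median of 11.3 to 15.8. Its counts thus went from 1 to 312 over the 12 mice, with 5 Tg mice above all Wt mice.

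Prlr, the prolactin receptor (chromosome 15, 10177238 to 10349180, plus strand, overlapping the predicted gene Gm21973), was at 6.86 CPM in Wt mouse 80, 4.14 in 12, 3.94 in 79, 2.03 in 95 and 1.44 in 41. In the Tg mice it was at 18.7 CPM in mouse 91, 17.3 in 92, 11.5 in 32, 10.6 in both 68 and 69, 5.02 in 93 and 3.34 in 67. The 5 highest mice were those of Ttr, but the order below them was not. Tg mice 93 and 67, which had the lowest Ttr, stood 7th and 10th of 12 for Prlr, and Wt mouse 80, 8th for Ttr, stood 6th. The mean was 3.68 ± 2.13 CPM (SD, n = 5) in Wt and 11.0 ± 5.68 (SD, n = 7) in Tg mice.

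Otx2, a homeobox transcription factor needed to form and keep the choroid plexus (chromosome 14, 48657677 to 48673819, minus strand), was at 2.10 CPM in Wt mouse 12, 1.28 in 79, 1.18 in 80, 0.844 in 95 and 0.111 in 41. The Tg mice ran from 0.173 CPM, from 3 counts in mouse 67, through a median of 4.70 to 7.03. Otx2 overlaps the antisense gene Otx2os1 and, on its own strand, the unconfirmed gene model Gm49154, and without strand in the counting the reads of Otx2 and Otx2os1 cannot be told apart where they overlap. Calml4, which encodes a calmodulin-like protein of epithelial microvilli (chromosome 9, 62858080 to 62875921, plus strand, overlapping the transcribed pseudogene Gm10653 on the other strand), was at 0.992 CPM in Wt mouse 12, 0.916 in 79, 0.414 in 80 and 0.394 in 95, and had 0 counts in 41, which allows up to 0.167 CPM. The Tg mice ran from 0.112 CPM through a median of 2.47 to 3.25. For both genes 5 Tg mice were above all Wt mice.

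Promoter sequences of RefSeq (GRCm38.p6) were searched because Otx2 is itself among these 9 genes and the prolactin receptor signals through STAT5, so that the letters each factor is known to bind could be looked for beside genes that varied together. The 250 bases before each start were searched on both strands for TAATCC, a core bound by OTX2 and related homeodomain proteins, and for TTCNNNGAA, a core bound by STAT5. Of the 9 genes, 6 had promoters in the table, 12 in all. TAATCC or its reverse complement was in 1 of the 12, against 6.25% of all 32851 promoters, and TTCNNNGAA was in 3 of the 12, against 7.02% of all. The promoters of Kl, F5 and Wfdc2 held no match. Capitals mark the matches. The promoters with a match follow for Prlr (chr15:10223656-10223905, plus strand, 1 of 3 starts, match beginning 110 bases before the start), for Otx2 (chr14:48665110-48665359, minus strand, 1 of 4 starts, with a homeodomain core 211 bases and a STAT core 113 bases before the start) and for Calml4 (chr9:62857854-62858103, plus strand, match 226 bases before the start).
Prlr: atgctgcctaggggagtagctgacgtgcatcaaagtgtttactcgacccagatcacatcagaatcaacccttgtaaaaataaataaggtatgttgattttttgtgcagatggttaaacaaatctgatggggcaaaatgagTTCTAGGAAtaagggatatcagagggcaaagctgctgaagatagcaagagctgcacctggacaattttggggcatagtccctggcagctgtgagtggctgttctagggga
Otx2: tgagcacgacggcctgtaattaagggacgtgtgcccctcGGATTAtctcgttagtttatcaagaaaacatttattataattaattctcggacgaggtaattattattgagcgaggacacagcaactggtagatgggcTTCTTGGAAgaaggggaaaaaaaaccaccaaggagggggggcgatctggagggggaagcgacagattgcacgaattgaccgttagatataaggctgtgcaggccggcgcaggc
Calml4: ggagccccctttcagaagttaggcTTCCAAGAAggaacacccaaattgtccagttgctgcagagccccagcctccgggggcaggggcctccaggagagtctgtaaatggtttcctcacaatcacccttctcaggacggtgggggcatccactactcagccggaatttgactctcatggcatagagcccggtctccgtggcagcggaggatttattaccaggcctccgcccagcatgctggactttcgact
A match describes these letters only. The counts do not separate the starts of a gene, and no binding was measured.

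The mice at the top were nearly the same across the 9 genes. The same 5 mice, Tg 32, 68, 69, 91 and 92, were the highest for 8 of the 9 genes, Sostdc1 being the exception. Tg mouse 91 ranked 1st or 2nd for every one of the 9, and Wt mouse 41 ranked between 8th and 12th. Wt 80 and Wt 95 had ranks from 6 to 11, and Tg 67 and Tg 93 from 7 to 12. The SD of log2 CPM was larger in Tg than in Wt mice for all 9 genes, with 3.48 against 1.81 for Ttr and 0.89 against 0.86 for Prlr. Pearson's r of log2 CPM over the 12 mice, given as a description because the mice fall into groups, had a median of 0.938 over the 36 pairs of genes. It was highest for F5 with Calml4 (0.976) and lowest for Wfdc2 with Prlr (0.665).

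Per kilobase of exon, the median level in Wt mice was 38.6 CPM per kb for Ttr, 1.96 for Sostdc1, 0.917 for Kl, 0.514 for Folr1, 0.342 for F5, 0.280 for Otx2, 0.257 for Prlr, 0.256 for Wfdc2 and 0.114 for Calml4. After Ttr, neighbours in this order overlapped between mice. The order depends on length, taken as all annotated exons together, 15339 bases for Prlr and 1140 for Wfdc2. A gene that uses only some of its exons would read low. Without length, the Wt median was 3.94 CPM for Prlr and 3.49 for Sostdc1. In Tg mice the median was 1044 CPM per kb for Ttr, and 5.83 for Sostdc1, 4.91 for Folr1 and 4.15 for Kl, which overlapped one another. The lowest in Tg mice was Calml4 at 0.680. By these medians Ttr was above the rest in both groups, while Folr1 passed Kl, and Wfdc2 (1.253 in Tg mice) passed F5 (0.910), Otx2 (1.11) and Prlr (0.692), all within their spread.

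Ratios were formed within each mouse for the 4 genes with at least 10 counts in every mouse, and these did not keep a fixed proportion to Ttr. The statement does not cover the genes left out for low counts. Among those, Folr1 per kilobase was 0.413% of Ttr in Tg 67 (1 count), 0.545% in Tg 68 and 3.20% in Tg 93 (13 counts). Kl was 0.380% of Ttr per kilobase in Tg mouse 68 and 13.3% in Tg mouse 67, which is 35.1 times as much. Sostdc1 ran from 0.505% of Ttr in Tg 32 to 17.6% in Tg 67, and Prlr from 0.0550% in Tg 68 to 3.59% in Tg 67. The pairs without Ttr varied far less between mice. Sostdc1 ran from 100.6% to 265.1% of Kl, a factor of 2.64, and Prlr from 14.4% of Kl in Wt 95 to 50.03% in Wt 80, a factor of 3.47. Prlr was also high relative to Kl in Tg 93, at 47.2%, and lay between 14.4% and 26.9% in the other mice. In the mice with little Ttr, the Ttr share of all counts on the 9 genes was 33.2% in Tg 67 and 40.5% in Tg 93, against 93.6% in Tg 68.

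**Figure D2:**
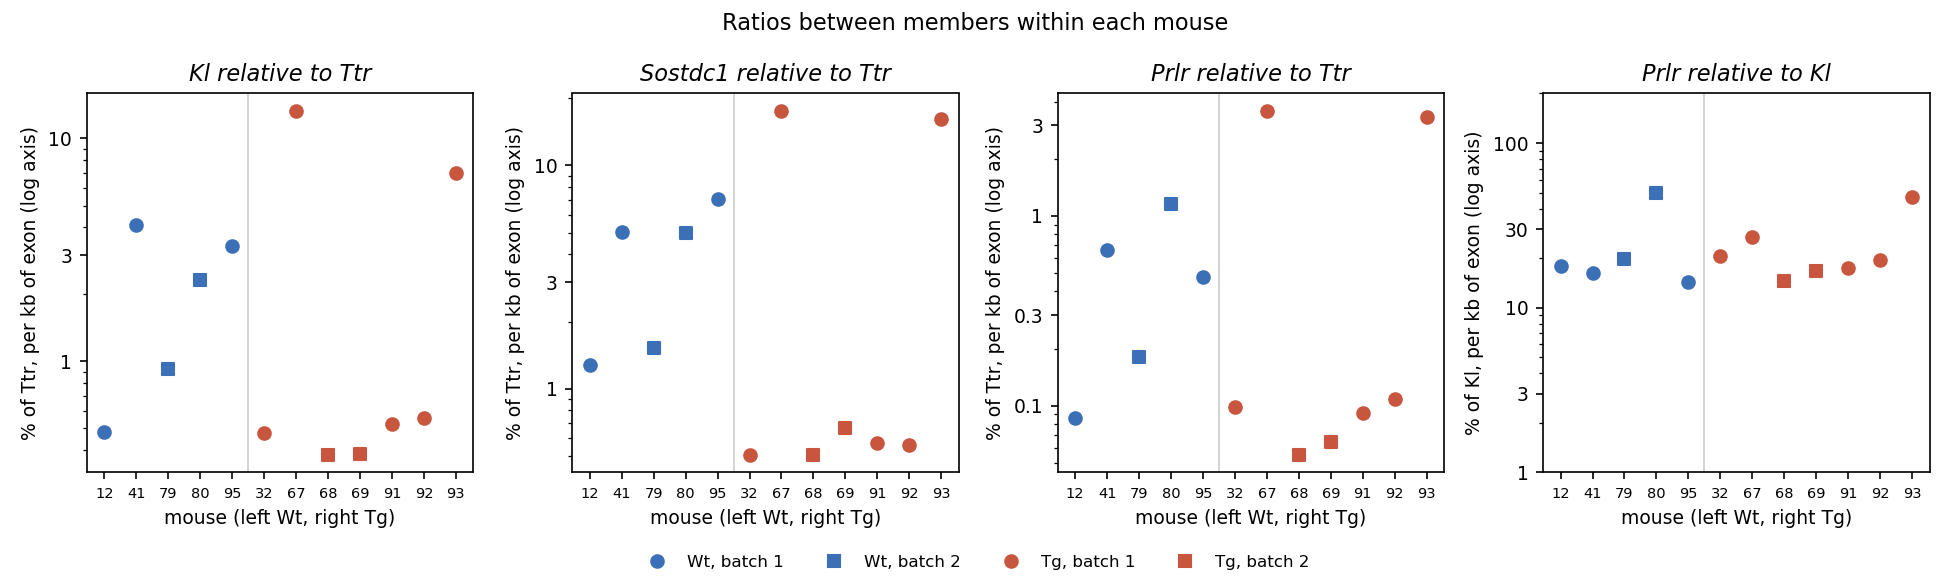
Kl, Sostdc1 and Prlr as a percentage of Ttr, and Prlr as a percentage of Kl, per kilobase of exon in each mouse on log axes, with Wt mice in blue, Tg mice in red, circles for batch 1 and squares for batch 2. Relative to Ttr the ratios are highest in Tg mice 67 and 93, while Prlr relative to Kl stays between 14.4% and 50.03%.

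The comparison of Tg with Wt mice asked whether these genes differed with the transgene once sex and library batch were allowed for. In edgeR's quasi-likelihood test all 9 genes had higher fitted levels in Tg mice. The log2 fold changes were 3.05 for Ttr (standard error 1.21), 3.01 for Folr1 (0.88), 2.14 for Calml4 (0.76), 2.10 for Otx2 (0.67), 1.93 for F5 (0.59), 1.92 for Kl (0.50), 1.81 for Prlr (0.32), 1.80 for Wfdc2 (0.59) and 1.197 for Sostdc1 (0.47). Their median was 1.93, against -0.0030 over all 15928 genes. At the threshold of an adjusted p under 0.1, 0 of the 9 were called, where the test called 1 gene, App, or 0.00628% of all. At an unadjusted p under 0.05 all 9 were higher in Tg mice, against 4.46% of all genes. This count was 7 without Wt mouse 79 (unadjusted p = 0.154 for Ttr and 0.0878 for Sostdc1) or without Wt 80 (0.132 and 0.0849). It was 8 without Wt 41 (0.0700 for Sostdc1, against 0.0240 in all mice) or without Tg 91 (0.0615). A gene could be named only if it stood in the results table of the study, which its own test on these mice ordered, so these p-values describe genes already selected in these mice: 1097 of the 1349 named genes had an unadjusted p under 0.05. Complete separation of the groups, with every Tg mouse higher, was seen for 0 of the 9, against 0.22% of all genes.

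Prlr had the smallest p of the 9 and the 4th smallest of all genes (unadjusted p = 8.53e-05, adjusted p = 0.286 from edgeR with Benjamini-Hochberg adjustment), and 5 of the 7 Tg mice exceeded every Wt mouse. Its 95% interval was 1.11 to 2.51 on the log2 scale. Ttr, with the largest fold change, had an adjusted p of 0.637 from the same test and an interval from 0.44 to 5.66. The DESeq2 Wald test with the same covariates called 1 of the 9, Prlr, higher in Tg mice (log2 fold change 1.79, adjusted p = 2.54e-05), where it called 51 genes higher, 0.32% of all. In edgeR Prlr also passed without Tg mouse 93 (log2 fold change 1.95, adjusted p = 0.0361), and over all mice left out in turn its adjusted p from edgeR lay between 0.0361 and 0.912. The exact permutation test of mean log2 CPM over all 792 splits of the 12 mice, two-sided and without covariates, gave p = 0.0164 for Prlr, 0.0455 for Wfdc2 and 0.0492 for Kl, and 0.101 to 0.226 for the other 6. The smallest p that test can give is 0.00126.

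The comparison was also made within library batch 1. In batch 2 both Tg mice were above both Wt mice for all 9 genes, but those mice also differ in sex. For Ttr the batch 2 means were 106.8 CPM in Wt and 1385 CPM in Tg mice. The batch 1 means were 140.2 ± 199.8 CPM (SD, n = 3) in Wt and 747.1 ± 715.4 (SD, n = 5) in Tg mice, of which 3 were above all Wt mice of that batch. In batch 1 alone, with sex as labelled for a covariate, all 9 fitted differences were smaller than over 12 mice. By label, mouse 12 was the only Wt female of that batch and mouse 67 the only Tg male. Sex and genotype were thus only partly separated there too. The standard error for Ttr was 1.51, against 1.21 over 12 mice. The log2 fold change was 1.36 for Prlr (standard error 0.48, unadjusted p = 0.0175), 1.14 for Wfdc2, 0.90 for Kl, 0.79 for Folr1, 0.70 for F5, 0.65 for Calml4, 0.48 for Otx2, 0.01 for Sostdc1 and -0.03 for Ttr. Among these only Prlr had an unadjusted p under 0.05, and every adjusted p was 1.0. With mouse 41 set to female, an alternative chosen after seeing the data, Prlr was at 1.85 (standard error 0.54, unadjusted p = 0.00633), Ttr at 1.27 (1.66) and the other 7 at 0.53 for Sostdc1 to 1.80 for Folr1, so that the direction of Ttr in batch 1 rested on the sex given to that mouse. Without a fit, the means of Prlr in batch 1 were 2.54 CPM in Wt and 11.2 in Tg mice, and in batch 2 5.40 and 10.6. Exact permutation over the 56 splits of the batch 1 mice gave p = 0.0536 for Prlr and 0.232 to 0.589 for the others, with 0.0179 as the smallest p possible.

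**Figure D3:**
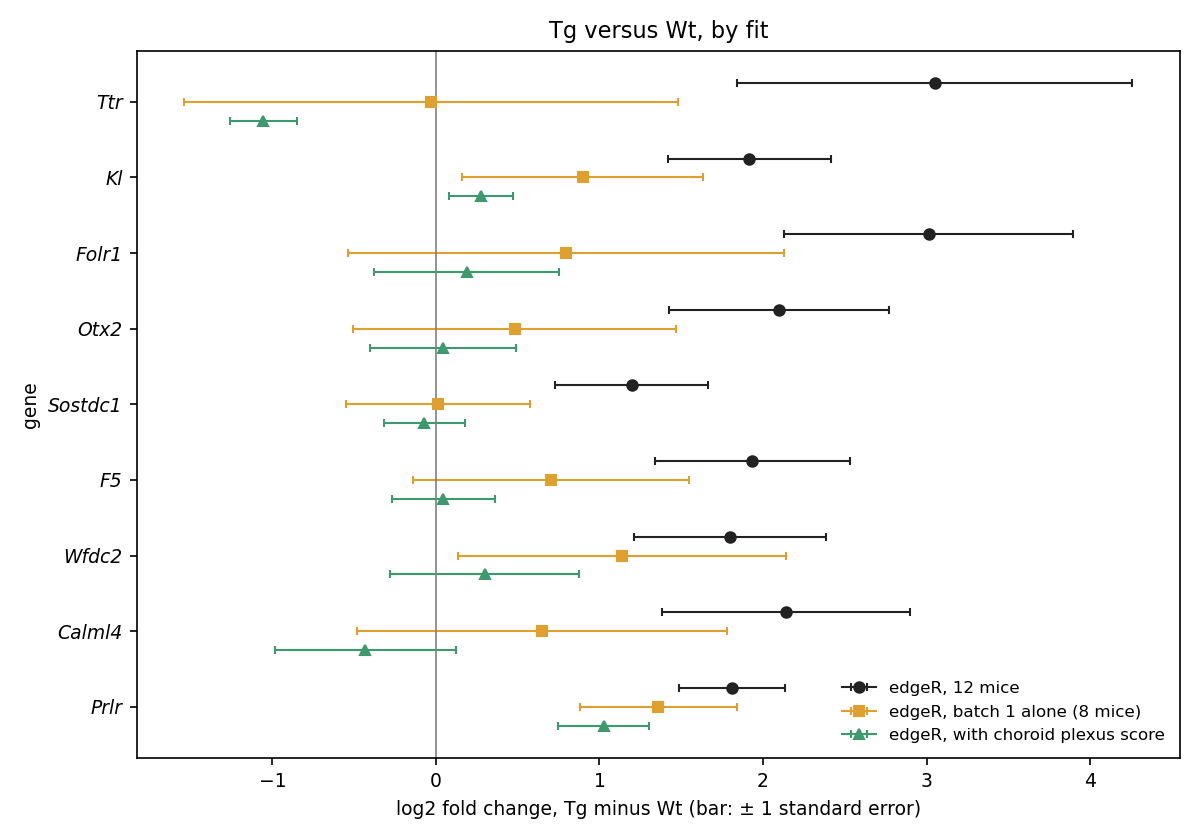
Log2 fold change of each gene, Tg minus Wt, with bars of 1 standard error, from edgeR over 12 mice (black), over the 8 mice of batch 1 with sex as labelled (orange) and over 12 mice with the choroid plexus score as a further covariate (green). Prlr goes from 1.81 to 1.36 and 1.03 in the last 2 fits, and Ttr from 3.05 to -0.03 and -1.05.

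Other genes of the choroid plexus epithelium varied with the same mice. Of the 40 listed, 26 were named. All 26 were higher in Tg mice with an unadjusted p under 0.05, against 4.46% of all genes, with a median log2 fold change of 1.64. Of the 1349 named genes, 666 were higher in Tg mice with such a p. In edgeR 0 of the 26 passed the threshold. In DESeq2 4 passed it, against 0.32% of all genes and, in either direction, 56 of the 1349 named genes. The summed level of the 26 in Wt mice was 482.9 CPM in mouse 12, 360.9 in 80, 351.7 in 79, 262.3 in 95 and 216.2 in 41. In Tg mice it was 1113 CPM in 91, 979.3 in 92, 968.7 in 68, 799.8 in 69, 681.0 in 32, 272.4 in 67 and 259.8 in 93. Enpp2, which makes lysophosphatidic acid and is also expressed by other brain cells, was the most abundant. Slc4a5, Kcne2, Tmem72, Mfrp and Krt18 were at 0 counts in at least 1 mouse. The genes of this list with the smallest p were the ion channel Trpv4 (log2 fold change 2.02, standard error 0.51), the homeobox gene Msx1 (1.38, 0.36) and the retinoid transporter Abca4 (1.14, 0.32).

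A score, the mean log2 CPM of 13 named epithelial genes that are not among the 9, was 3.11 to 3.87 in Tg mice 32, 68, 69, 91 and 92, 2.34 in Wt 12, 1.61 in Wt 79, and between -0.34 and 0.66 in Wt 41, 80 and 95 and Tg 67 and 93. The 13 genes had a median log2 fold change of 2.18. They too could be named only through the study's results for Tg against Wt mice, and all 13 were higher in Tg mice with an unadjusted p under 0.05. A fit with this score therefore takes out part of the genotype difference by construction, and it does not set any of the 9 genes apart from the others. With this score as a further covariate, the log2 fold change was 1.03 for Prlr (standard error 0.28, unadjusted p = 0.00284, adjusted p = 0.9998 from edgeR), 0.30 for Wfdc2, 0.27 for Kl, 0.19 for Folr1, 0.05 for F5 and 0.04 for Otx2. It was -0.07 for Sostdc1, -0.43 for Calml4 and -1.05 for Ttr (standard error 0.21, unadjusted p = 2.21e-04, adjusted p = 0.88). The part of the amount of choroid plexus in the dissected tissue was not tested.

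Markers of other cell types were read in the same way. Oligodendrocyte genes also varied with these mice: 10 of 12 were named, all 10 were higher in Tg mice with an unadjusted p under 0.05, against 4.46% of all genes and 666 of the 1349 named genes, and their median log2 fold change was 0.96. In edgeR 0 passed the threshold. In DESeq2 1 passed it, against 0.32% of all genes and, in either direction, 56 of the 1349 named genes. The summed level of the 10 was 1114 CPM in Wt 41, 1506 in 95, 1641 in 80, 2049 in 79 and 3693 in 12. In Tg mice it was 1524 CPM in 93, 2013 in 67, 3469 in 92, 3713 in 69, 4813 in 68, 4818 in 32 and 6188 in 91. Mbp was the most abundant, and Aspa (1.203, standard error 0.34) and Mobp (1.10, 0.35) had the smallest p, with none of the 10 at 0 in any mouse. Their part in the differences of the 9 genes was not tested.

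Ependymal cells, the ciliated cells that line the ventricles, had 2 of 12 markers named, Drc7 (log2 fold change 1.59, standard error 0.51) and Foxj1 (0.79, 0.32). Their summed level was 2.67 to 6.74 CPM in Wt and 3.57 to 17.9 in Tg mice, with Foxj1 the more abundant on average and Drc7 the higher in Tg 32, 69 and 92. Microglial markers, 3 of 10 named and led by C1qb, summed to 55.9 to 71.2 CPM in Wt and 69.4 to 90.4 in Tg mice and had log2 fold changes of 0.43 for Tyrobp, 0.29 for C1qb and 0.27 for C1qa. Of the 5 astrocyte markers named of 10, led by Slc1a2 and summing to 2740 to 3537 CPM in Wt and 2492 to 3122 in Tg mice, 3 were higher and 2 lower. Gfap (1.01, standard error 0.21) and Agt (0.75, 0.15) were higher and Slc1a2 (-0.32, 0.11) was lower in Tg mice. Of the neuronal markers 1 was higher and 4 were lower, among them Grin2b (-0.34), Camk2a (-0.25) and Grin2a (-0.22). None of these 15 was at 0 in any mouse, and 0 passed the threshold in edgeR, while an unadjusted p under 0.05 was reached by 2 ependymal, 3 microglial, 4 astrocyte and 4 neuronal markers, against 1146 of all 15928 genes and 1097 of the 1349 named genes in either direction. In DESeq2 2 passed, the astrocyte markers Gfap and Agt, against 56 genes of the whole table. None of the 10 listed markers of meningeal and stromal fibroblasts, and none of the 8 of endothelial cells, could be named, so they were not analysed here.

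**Figure D4:**
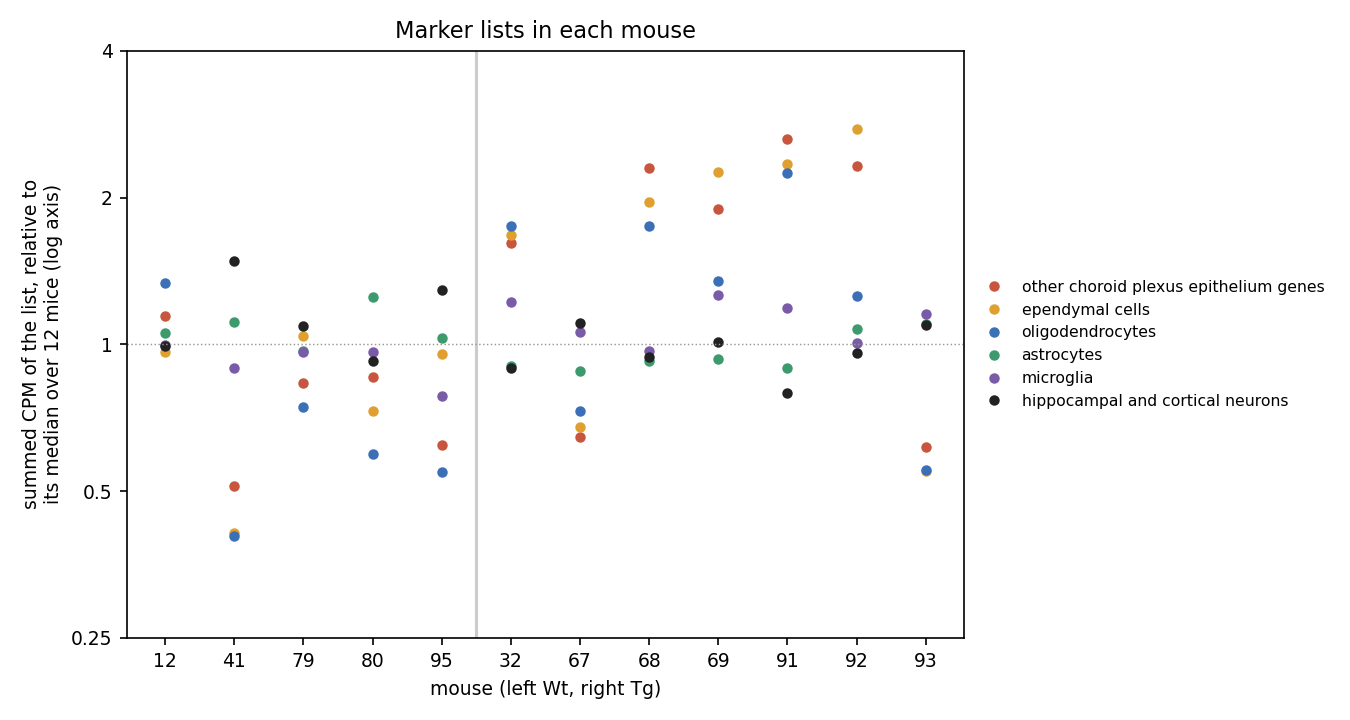
Summed CPM of the named genes of 6 marker lists in each mouse, relative to the median of that list over the 12 mice, on a log axis. The choroid plexus, ependymal and oligodendrocyte lists are high in Tg mice 32, 68, 69, 91 and 92, and the neuronal list spans a factor of 1.87 over all mice. The oligodendrocyte list is also high in Wt mouse 12, with a sum of 3693 CPM against 3469 in Tg 92.

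Sex was examined in the same fit. Prlr was at 2.03 CPM in mouse 95 and 1.44 CPM in mouse 41, the Wt mice labelled male, and 3.94 to 6.86 CPM in the Wt mice labelled female. With mouse 41 counted as female the Wt females ran from 1.44 to 6.86 CPM and the sexes overlapped. In Tg mice it was 3.34 to 10.6 CPM in males and 5.02 to 18.7 CPM in females, so the sexes overlapped there too. The log2 difference, female minus male, was 1.19 for Prlr (standard error 0.33, unadjusted p = 0.00294, adjusted p = 0.326 from edgeR). It was 1.14 with mouse 41 set to female (standard error 0.41, unadjusted p = 0.0165, adjusted p = 0.995 from edgeR). Without that mouse it was 1.15 (standard error 0.39, unadjusted p = 0.0116, adjusted p = 0.920 from edgeR). The edgeR test called 0 genes by sex at the threshold, 0% of all, and 1801 genes, 11.3%, had an unadjusted p under 0.05, among them 1 of the 9. That number of genes was 541 with mouse 41 set to female, 838 without it and 3152 without Wt mouse 95. DESeq2, run only with mouse 41 as labelled, called 175 genes and, of the 9, Prlr (adjusted p = 0.0327). For the other 8 the log2 difference ran from -0.09 for Wfdc2 to 1.95 for Ttr, with an unadjusted p of 0.0539 for F5 and more for the others. With mouse 41 set to female these 8 ran from -0.17 to 1.41, and without it from -0.15 to 1.45, again from Wfdc2 to Ttr. Over mice left out in turn, the sex difference of Ttr ran from 1.22 without Wt 12 to 2.99 without Wt 80. That of Folr1 ran from 0.21 without Tg 67 to 1.70 without Wt 95.

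Between the library batches, with genotype and sex in the fit, Prlr differed by 0.76 on the log2 scale, batch 2 minus batch 1 (standard error 0.32, unadjusted p = 0.0348, adjusted p = 0.636 from edgeR), and was the 1 of the 9 with an unadjusted p under 0.05. The edgeR test called 0 genes by batch, 0% of all, while 1217 genes, 7.64%, had an unadjusted p under 0.05, and DESeq2 called 24 genes and 0 of the 9. The other 8 genes ran from -0.38 for Wfdc2 to 1.57 for Ttr.

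The level of App did not order the Tg mice as these genes did. Tg mice 67 and 93, low for all 9 genes among the Tg mice, had 5198 and 5145 CPM of App, while Tg 68 and 69, high for the 9, had 5140 and 5727. Tg 32, 91 and 92, also high for the 9, had 3393, 2991 and 3147.

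Outside the 9 themselves, the named genes most like their mean profile over the 12 mice, by Pearson's r of log2 CPM, were Tmem72 (0.983), Kcnj13 (0.982), Kcne2 (0.976), Enpp2 (0.973), Drc7 (0.972), Slc39a4 (0.971), 1500015O10Rik (0.967), Col8a2 (0.967), Slc4a5 (0.966) and Cldn2 (0.959). They include potassium channel genes (Kcnj13, Kcne2), a zinc transporter (Slc39a4), a bicarbonate transporter (Slc4a5) and a claudin of leaky epithelia (Cldn2). Kcnj13 was at 1.88 ± 2.11 CPM (SD, n = 5) in Wt and 11.1 ± 8.36 (SD, n = 7) in Tg mice. No unnamed gene had an r above that of Cldn2. Singly, and again outside the 9, Ttr was most like Slc4a5 (0.989), Kl was most like Enpp2 (0.982), Folr1 (0.953) and Otx2 (0.972) like Kcnj13, and Sostdc1 (0.969) and Calml4 (0.992) like Tmem72. F5 was most like Fth1 (0.987), the ferritin heavy chain, whose own range over the 12 mice was 576 to 1040 CPM. Wfdc2 was most like Depdc7 (0.933), and Prlr was most like Pcolce2 (0.948), an enhancer of procollagen processing at 2.59 ± 1.23 CPM (SD, n = 5) in Wt and 6.08 ± 3.26 (SD, n = 7) in Tg mice.

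Genes of the pathways in which the 9 act could be named only in part. For prolactin receptor signalling 1 of 11 was named, Stat5a, which differed by 0.65 on the log2 scale (standard error 0.28). For retinol and thyroid hormone transport 2 of 12 were named, the retinol dehydrogenase Rdh5 (1.44, 0.46) and the retinol binding protein receptor Stra6 (0.63, 0.24). Among BMP and Wnt ligands, co-receptors and antagonists 2 of 16 were named, Wnt5a (0.34, 0.12) and the co-receptor Lrp4 (-0.34, 0.14). Of the regulators of choroid plexus and cilia 4 of 12 were named, 2 higher and 2 lower in Tg mice. Msx1 (1.38) and Foxj1 (0.79) were higher, and Rfx3 (-0.35, standard error 0.14) and Emx2 (-0.41), the last named after its values were seen, were lower. The list of protease inhibitors had 1 of 8 named, Serpinf1 (0.77, 0.26). All the genes named in these lists missed the threshold in edgeR, with the smallest adjusted p at 0.598 for Msx1, which DESeq2 called. No gene of the lists for Klotho and FGF signalling (11 genes), folate uptake and metabolism (12), coagulation factors (14) or calmodulins and microvillus linkers (11) was named, so they were not analysed here.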

How the data were processed

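Total RNA without ribosomal RNA was sequenced on an Ion Torrent instrument, and reads were mapped by the authors to mm10 (STAR, Bowtie2), who kept unambiguous reads per gene, removed low genes and deposited raw counts of 15928 genes. The authors also deposited normalization factors, each a ratio between libraries from edgeR, with library batch numbers. Versions, annotation and strand are not given in the sources used here. Row names were solved from size factors and mean counts (relative difference at most 4.3e-10, 1349 of 1684 names). Tests used edgeR 4.0.16 (quasi-likelihood, TMM, filterByExpr, which removed no gene, sex and batch as covariates, adjusted p under 0.1) and DESeq2 1.42.0 in R 4.3.3, tested on simulated data. CPM used TMM, log2 CPM a prior count of 2, and lengths the union of GENCODE M21 exons. Named genes were the 9 members, App, Xist, the 10 most correlated genes, the gene most like each member, and the 3 smallest p of each list, of which 1 gene is not reported here. Members and lists were chosen with earlier results of these data known.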

Additional observations from a re-analysis of the deposited data

Results flagged for a closer look

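Wfdc2 in Wt mouse 95 stood far from the other Wt mice, at 0.844 CPM (15 counts) against 0.236 to 0.389 CPM in the other 4. The gap made up 0.75 of the range of the Wt group. In that mouse Ttr, Folr1, Otx2 and Calml4 were not the highest of the Wt group. This was the 1 such value among 24 groups of mice examined, and chance alone gives about 1 in 20 groups.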

How the results depend on the processing

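Of 195 recomputed log2 fold changes of the 9 genes between Tg and Wt mice, 191 kept their direction, 4 reversed and 2 passed the threshold. Those that reversed were Ttr (-0.029 in batch 1 alone, and -1.05 with the choroid plexus score), Sostdc1 (-0.071 with the score) and Calml4 (-0.43 with the score). The fit with the score takes out part of the genotype difference by construction, and the batch 1 fit only partly separates sex from genotype. The cause was not tested. In batch 1 with mouse 41 set to female, an alternative chosen after seeing the data, Ttr was at 1.27 and 0 genes passed. Over mice left out in turn Ttr ran from 2.24 to 4.19, Sostdc1 from 0.97 to 1.61 and Prlr from 1.64 to 1.95. Genes past the threshold numbered 1 in edgeR, 56 with DESeq2, 2 with the score, 0 in batch 1 alone, and 1 to 2 with a mouse left out. Of the 9 genes, 1 (Prlr) passed with DESeq2, and 0 to 1 with a mouse left out. By sex, the count was 0, and 175 with DESeq2, 1 with mouse 41 set to female, and 0 to 540 with a mouse left out, the highest without Wt 95 and 1 without Wt 41. By batch it was 0, and 24 with DESeq2. The sex difference of Wfdc2, -0.09, reversed without Tg 68 (0.03), Wt 79 (0.01), Wt 80 (0.03), Tg 93 (0.10) or Wt 95 (0.41), and ran from -0.55 to 0.41. A prior count of 0.5 moved 0 permutation tests across 0.05. With a minimum of 5 CPM in 5 libraries, Otx2, Wfdc2 and Calml4 were not tested. Counts of 0 to 15 in the low mice limit Calml4, Folr1, Otx2, Wfdc2 and F5. No paired analysis was possible because the groups share no replicate numbers.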
